A study of Mus musculus with 4 samples.

Results

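The genes described here were 10 genes of neuronal injury and axon regrowth, Atf3, Jun, Sox11, Gap43, Sprr1a, Gal, Stmn4, Ecel1, Klf6 and Ddit3, out of 33696 gene features counted in each matrix. They were taken by name, and their unique molecular identifiers (UMIs, each standing for a captured RNA molecule) were counted in every nucleus of 4 matrices from mouse brain 21 days after a photothrombotic (PT) injury, in which light and a dye clot the vessels of a patch of cortex. Nuclei were stained with DAPI, sorted, and profiled by droplet RNA-seq in 2 libraries. The control library came from wild-type (WT) mice, and the library labelled Cxcl12-cKO came from Col1a2(creER); Cxcl12(flox) mice, in which a tamoxifen-inducible Cre driven from Col1a2 in fibroblasts deletes Cxcl12, a chemokine. Tissue of 1 male and 1 female mouse was pooled in each library, and all groups carried the same injury. Within a library, tagged nuclei from the lesion and from the surrounding parenchyma were mixed at 75% and 25%. The age of the mice is not in the labels.

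When an axon is cut in a peripheral nerve, the neuron switches on a regeneration-associated programme: the stress kinases DLK and JNK act on Jun, Jun and Atf3 pair as AP-1 type transcription factors, and Sox11 and Klf6 join them at the promoters of effector genes. The effectors include Gap43 and Stmn4, proteins of the growth cone and of microtubule turnover, Sprr1a, a small proline-rich protein of injured sensory neurons, Gal, which encodes the neuropeptide galanin, and Ecel1, a membrane metallopeptidase of injured neurons. Ddit3, also called CHOP, is a transcription factor of the integrated stress response that can lead a stressed cell to death. Cortical neurons are known for a weak version of this programme, and several of these genes also belong to general stress responses of glia and macrophages.

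After filtering, 21743 of 23489 barcodes were kept. The lesion matrices held 8095 control and 7933 Cxcl12-cKO nuclei with medians of 2962 and 2975 UMIs, and the parenchyma matrices held 2877 and 2838 nuclei with medians of 15915 and 16648 UMIs. Levels are therefore given as CPM, the UMIs of a gene after scaling all UMIs of the group to a sum of 1000000, with 95% exact Poisson intervals, which cover counting error only, and shares of nuclei were compared after thinning each nucleus to 1000 UMIs. The 2 lesion matrices shared 22 barcodes, and other pairs of matrices shared 0 to 15. Clusters were named from marker genes and made without the injury genes, so a class is called neuron-like, myeloid-like and so on. The targeted gene went against its label: Cxcl12 stood at 106 CPM (101 to 111) in lesional fibroblast-like nuclei of the control library, and the other library stood at 215 CPM (208 to 223). No source used here says which part of Cxcl12 is deleted, so every library difference below is between libraries as labelled.

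The injury genes fell into 2 sets by where their UMIs lay. Gap43 (12589 UMIs), Stmn4 (4137), Sox11 (2561) and Ecel1 (288) were mostly neuronal: excitatory neuron-like nuclei held 73.9%, 79.1%, 78.1% and 54.2% of their UMIs, beside 55.9% of all UMIs, and inhibitory neuron-like nuclei, with 11.5% of all UMIs, held 42.7% of the Ecel1 UMIs. The transcription factors Klf6 (4295), Jun (1815), Ddit3 (1726) and Atf3 (1164) were not. Myeloid-like nuclei, which held 7.45% of all UMIs, carried 87.5% of the Atf3, 28.9% of the Jun, 27.3% of the Klf6 and 21.1% of the Ddit3 UMIs, and fibroblast-like nuclei, with 18.4% of all UMIs, carried 33.6% of the Ddit3 and 27.6% of the Klf6 UMIs. Sprr1a and Gal were almost absent, with 2 UMIs each. Both Sprr1a UMIs were in excitatory neuron-like nuclei of the Cxcl12-cKO parenchyma. Of the Gal UMIs, 1 was in an excitatory neuron-like nucleus of the control parenchyma and 1 in a fibroblast-like nucleus of the control lesion, so no lesional neuron carried a UMI of either gene. Over lesional excitatory neuron-like nuclei the upper end of the 95% Poisson interval of a count of 0 is 0.486 CPM in the control and 1.18 CPM in the Cxcl12-cKO library. A second gene feature named Ddit3 (ENSMUSG00000116429) had 0 UMIs, and Ddit3 below is ENSMUSG00000025408.

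**Figure D1:**
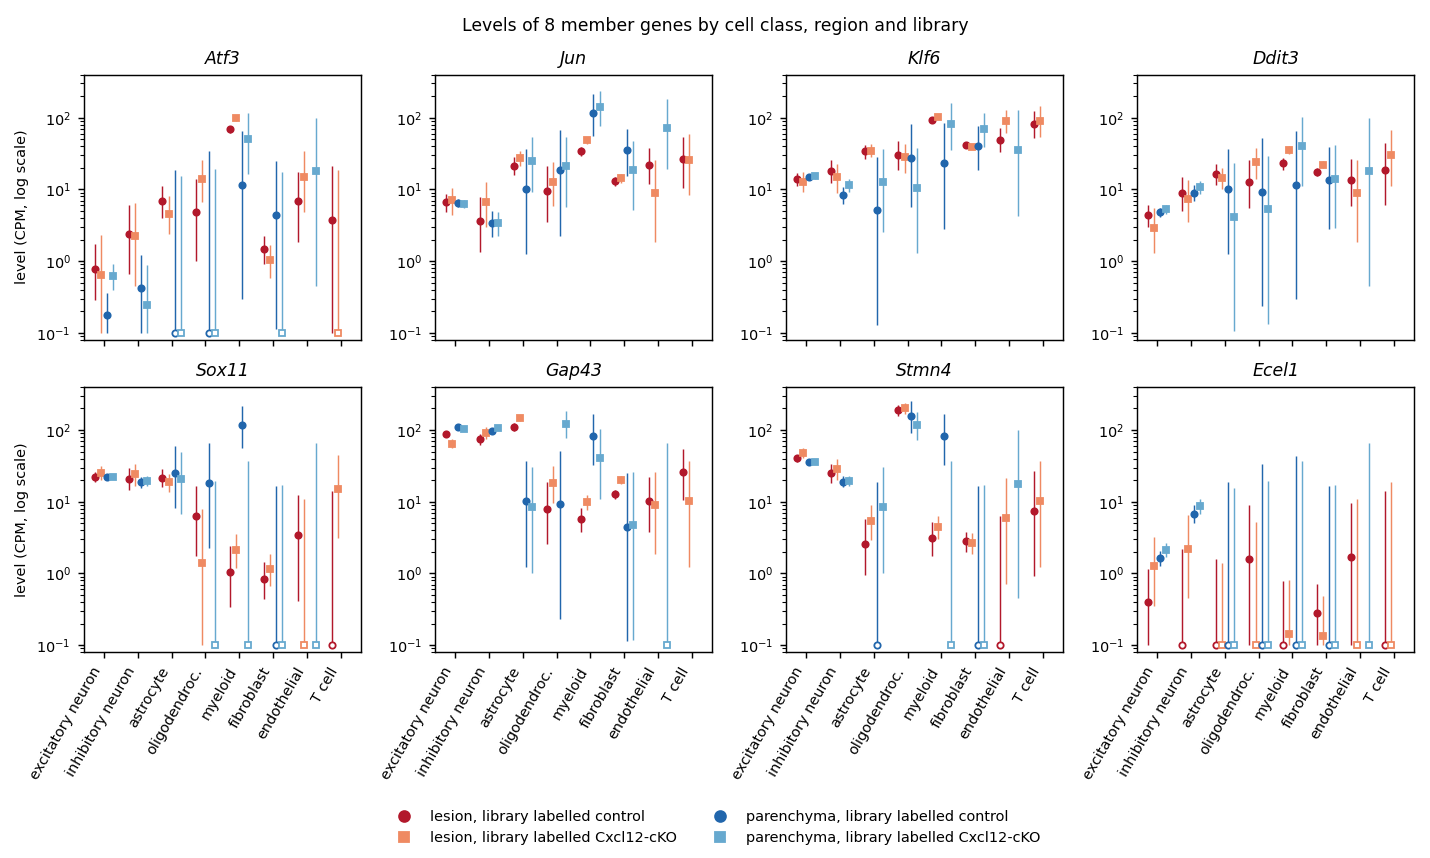
Level of 8 injury genes (CPM on a log axis, the gene in each panel) in cell classes with at least 20 nuclei, with 1 point for each region and library and 95% Poisson intervals. Open points at the bottom are classes with 0 UMIs. Atf3 stands highest in lesional myeloid-like nuclei at 68.8 and 98.3 CPM, and Gap43 in lesional astrocyte-like nuclei reaches the level of neurons.

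Atf3, the stress-induced factor most often used to mark axotomised neurons, stood at 68.8 CPM (61.5 to 76.7, 328 UMIs) in lesional myeloid-like nuclei of the control library and at 98.3 CPM (91.1 to 106, 684 UMIs) in those of the Cxcl12-cKO library. In excitatory neuron-like nuclei it stood at 0.79 CPM in the control lesion (6 UMIs), 0.64 in the Cxcl12-cKO lesion (2), 0.18 in the control parenchyma (7) and 0.62 in the Cxcl12-cKO parenchyma (24). Inhibitory neuron-like nuclei had 4 and 3 UMIs in the control and Cxcl12-cKO lesion and 3 and 2 in the parenchyma. Neurons of every region and library thus lay far under the lesional myeloid level, and most of their values rested on fewer than 10 UMIs. Other lesional classes had low to intermediate levels: oligodendrocyte-like nuclei at 4.82 and 14.1 CPM, endothelial-like nuclei at 6.83 and 14.9, astrocyte-like nuclei at 6.94 and 4.58, and fibroblast-like nuclei at 1.47 and 1.02. Of lesional myeloid-like nuclei, 10.5% in the control and 17.8% in the Cxcl12-cKO library held an Atf3 UMI, at medians of 2170 and 2379 UMIs, and after thinning 5.63% (4.58 to 6.84) and 7.74% (6.65 to 8.94) did. In lesional fibroblast-like nuclei, which are the deeper class at medians of 3054 and 3088.5 UMIs, the unthinned shares were 0.311% and 0.342%.

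Within the lesional myeloid-like nuclei, the level of Atf3 differed between clusters. The cluster led by Atp6v0d2, Mrc1, Mmp12 and Gpnmb, genes of phagocytic macrophages, held 1003 control and 1359 Cxcl12-cKO nuclei and stood at 81.3 CPM (71.1 to 92.5) and 123 CPM (112 to 133). The cluster led by Gm2629, Ly86, Cx3cr1 and Itgam, with the microglial fractalkine receptor among its genes, stood at 45.2 CPM (35.5 to 56.7) and 59.9 CPM (50.0 to 71.1). In the small cluster led by Cd74 and H2-Aa, genes of antigen presentation, Atf3 stood at 81.6 CPM (51.7 to 122) and 46.0 CPM (27.2 to 72.6), and the 23 control UMIs lay in 8 nuclei. The first cluster thus lay above the second in both libraries without overlap of the intervals, and the intervals of the third overlapped between the libraries.

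**Figure D2:**
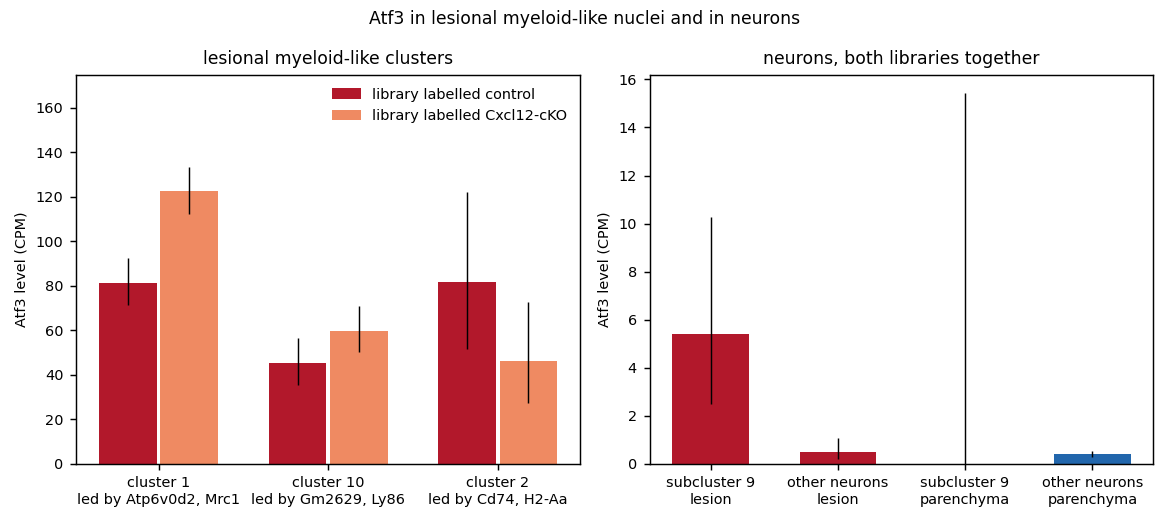
Level of Atf3 (CPM, 95% Poisson intervals) in 3 clusters of lesional myeloid-like nuclei by library (left) and in neuron-like nuclei of both libraries together, split into subcluster 9 and all others by region (right, on its own scale). The Atp6v0d2-led cluster stands at 81.3 and 123 CPM, while neurons outside subcluster 9 stand at 0.50 CPM in the lesion and 0.38 CPM in the parenchyma.

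Lesional neuron-like nuclei held 15 Atf3 UMIs in all, and 9 of them lay in a single subcluster of 126 nuclei, 114 of them lesional, which was led by Bnc2, Eya2, Lrmda, Cped1 and Col1a2, the last a fibroblast collagen. In that subcluster 50% of lesional nuclei held UMIs of both the female Xist and Y-linked genes, beside 10.4% of other lesional neurons. Atf3 stood at 5.41 CPM (2.48 to 10.3) in its lesional nuclei. In the other 904 lesional neurons it stood at 0.50 CPM (0.18 to 1.08, 6 UMIs), and in the other 5302 parenchymal neurons at 0.38 CPM (0.27 to 0.53, 36 UMIs). The part of mixed barcodes in the lesional Atf3 value was not tested.

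Jun, the AP-1 partner of Atf3, was likewise higher in myeloid-like than in neuron-like nuclei of the lesion, at 34.0 CPM (28.9 to 39.6) in the control and 48.6 CPM (43.5 to 54.0) in the Cxcl12-cKO library. The few parenchymal myeloid-like nuclei stood at 117 CPM from 10 UMIs and 142 CPM from 14 UMIs. In the small Cd74-led cluster Jun reached 124 and 130 CPM, beside 30.6 and 52.1 in the Atp6v0d2-led and 23.8 and 27.2 in the Ly86-led cluster, so Jun stood highest in the Cd74-led cluster in both libraries, whereas Atf3 did not in the Cxcl12-cKO library. Excitatory neuron-like nuclei lay between 6.22 and 7.02 CPM in all 4 region and library combinations, and inhibitory neuron-like nuclei at 3.61 and 6.63 CPM in the lesion and 3.39 in each parenchyma. Lesional astrocyte-like nuclei stood at 21.3 and 27.5 CPM, T cell-like nuclei at 26.4 and 25.4 and fibroblast-like nuclei at 13.0 and 14.3.

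Klf6, a Krüppel-like zinc finger factor, was the most abundant of the 4 factors outside neurons. Lesional myeloid-like nuclei stood at 93.1 CPM (84.7 to 102) and 103 CPM (96.1 to 111) in the control and Cxcl12-cKO libraries, T cell-like nuclei at 83.0 and 91.4, endothelial-like nuclei at 49.5 and 89.4, and fibroblast-like nuclei at 41.0 and 39.3. In astrocyte-like nuclei it stood at 33.8 and 34.8 CPM in the lesion, against 5.11 CPM (1 UMI) and 12.5 CPM (3 UMIs) in the parenchyma. Excitatory neuron-like nuclei lay between 12.8 and 15.2 CPM everywhere. Ddit3 stood at 23.1 and 35.9 CPM in lesional myeloid-like, 17.6 and 22.0 in fibroblast-like and 16.5 and 14.5 in astrocyte-like nuclei. Excitatory neuron-like nuclei had 4.34 CPM of Ddit3 in the control lesion, 2.87 in the Cxcl12-cKO lesion, 4.83 in the control parenchyma and 5.27 in the Cxcl12-cKO parenchyma, and inhibitory neuron-like nuclei had between 7.36 and 10.7. Its highest neuronal level was in a parenchymal subcluster led by Oprk1 and Nr4a2, at 18.9 and 15.7 CPM.

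The promoters of these genes were searched for sites by which the programme's own factors are known to bind. In the 250 bases before the start of each gene, read on both strands from the RefSeq table of GRCm38.p6 (the deposited matrices were made on GRCm39, so these positions are not theirs), 8 of the 10 genes had an entry. An AP-1 site, spelled TGANTCA, was in 6.75% of all 32851 promoters of that length and in 2 of the 8. A CRE-like site, TNACGTCA, was in 2.52% of all promoters and in 1 of the 8, and a C/EBP-ATF element, TGATGNAA, in 3.45% and in 1 of the 8. The windows with a match are shown because they belong to the factor most concentrated in lesional myeloid nuclei (Atf3), to the stress factor Ddit3, and to the nearly absent effector Sprr1a. Capitals mark the match, which is a match of letters only:
Atf3, CRE-like, chr1:191183334-191183354, minus strand: tattaatagcaTTACGTCAgc
Atf3, C/EBP-ATF, chr1:191183425-191183454, minus strand: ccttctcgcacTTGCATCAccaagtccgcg
Sprr1a, AP-1, chr3:92486009-92486038, minus strand: ataactaaagcTGAGTCAgagggtgaacta
Sprr1a, AP-1, chr3:92485979-92486008, minus strand: ggggaggagggTGAGTCAtaggtgactggt
Ddit3, AP-1, chr10:127290543-127290572, plus strand: cgcgcgcaTGACTCActcacctcctccgcg
The C/EBP-ATF match in Atf3 is the reverse complement of the letters spelled above, TGATGNAA.

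Lesional neurons were compared with parenchymal neurons, and the study describes the parenchyma as perilesional cortex of the injured brain. No uninjured brain was among these matrices. The comparison therefore asks whether the programme differed between the regions, and it cannot show whether the programme was on near the injury. UMIs were summed over the excitatory or the inhibitory neuron-like nuclei of each region and library, and edgeR's quasi-likelihood test was fitted on all genes with library as a block. The 2 libraries, which differ in genotype, were the replicates, leaving 1 residual degree of freedom per gene before moderation. In excitatory neuron-like nuclei (504 and 234 lesional, 2189 and 2079 parenchymal, control and Cxcl12-cKO), 8 injury genes could be tested. Of these 2 passed: Gap43 fell and Stmn4 rose in the lesion. Over all 17814 genes tested, 15% were called higher and 17.5% lower, 32.5% in all, so 2 of 8 was no larger a share than the background. The median difference of the 8 genes was 0.07 on the log2 scale, beside -0.05 over all genes. DESeq2 called none of the 8. In inhibitory neuron-like nuclei (140 and 140 lesional, 502 and 544 parenchymal) none of the 7 genes tested passed by edgeR or DESeq2, 3 had an unadjusted p under 0.05 by edgeR, and 5.02% of 13863 genes were called, 1.38% higher and 3.64% lower.

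Gap43, the growth-associated protein of the axon's growth cone, stood in excitatory neuron-like nuclei at 87.0 CPM (80.5 to 93.9) in the control lesion, 64.5 (55.9 to 74.0) in the Cxcl12-cKO lesion, 111 (108 to 114) in the control parenchyma and 104 (100 to 107) in the Cxcl12-cKO parenchyma. Both lesional sums lay under both parenchymal sums. The fitted difference was -0.39 on the log2 scale (SE 0.098, edgeR adjusted p 0.0014), and DESeq2 gave an adjusted p of 0.064. By mouse, where nuclei could be assigned from Xist and Y-linked UMIs, the control lesion stood at 93.5 CPM in the female and 78.2 in the male against 101 and 120 in the parenchyma, and the Cxcl12-cKO lesion at 66.0 and 70.6 against 95.1 and 111. By point value each of the 4 mice was thus lower in the lesion. The lesional nuclei numbered 244 and 157 in the control and 152 and 39 in the Cxcl12-cKO female and male. With the females alone the difference was -0.18 with an edgeR adjusted p of 0.32. In inhibitory neuron-like nuclei Gap43 stood at 74.6 and 91.3 CPM in the lesion and 95.6 and 107 in the parenchyma, with adjusted p 0.49.

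Stmn4, a stathmin that binds tubulin, went the other way in excitatory neuron-like nuclei, at 40.4 CPM (36.0 to 45.2) in the control lesion, 48.2 (40.8 to 56.5) in the Cxcl12-cKO lesion, 36.0 (34.2 to 37.9) in the control parenchyma and 35.6 (33.7 to 37.5) in the Cxcl12-cKO parenchyma. The fitted difference was 0.39 (SE 0.12, edgeR adjusted p 0.0067; DESeq2 0.133). The mice did not agree on it: in the control library the female stood at 52.7 CPM in the lesion and 40.6 in the parenchyma, but the male at 21.6 and 32.2, while in the Cxcl12-cKO library the female stood at 51.7 and 38.5 and the male at 47.1 and 31.0. Fit on the males alone, the difference was -0.11. Stmn4 was highest in oligodendrocyte-like nuclei, at 188 and 201 CPM in the lesion and 157 and 116 in the parenchyma, and the summed level of 6 oligodendrocyte markers in excitatory neuron-like nuclei was 84.5 and 74.1 CPM in the lesion and 70.6 and 67.2 in the parenchyma. The part of oligodendrocyte RNA in the Stmn4 difference was not tested.

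**Figure D3:**
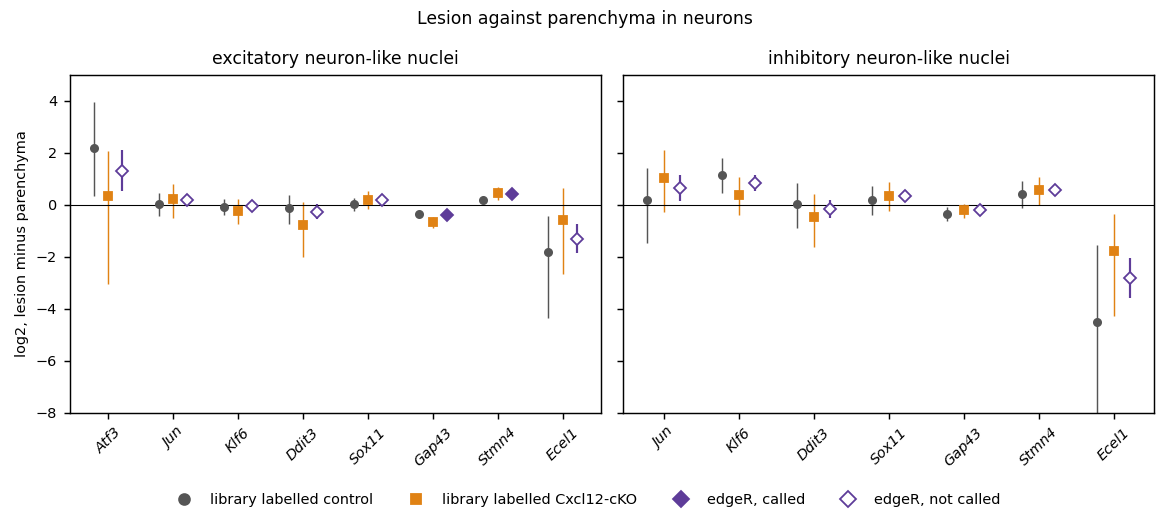
Difference between lesion and parenchyma (log2, positive is higher in the lesion) for the injury genes in excitatory and inhibitory neuron-like nuclei. Circles and squares are the control and Cxcl12-cKO libraries with 95% counting intervals, and diamonds are the edgeR estimates with their SE, filled where the adjusted p is under 0.05. Gap43 at -0.39 and Stmn4 at 0.39 in excitatory neuron-like nuclei are the filled diamonds.

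The other tested genes did not pass in excitatory neuron-like nuclei. For the transcription factors the fitted differences were 1.29 for Atf3 (SE 0.79, adjusted p 0.21), 0.18 for Jun (adjusted p 0.60), 0.18 for Sox11 (0.31), -0.05 for Klf6 (0.85) and -0.28 for Ddit3 (0.48). For Ecel1, with 3 and 4 lesional UMIs, the difference was -1.31 (SE 0.57, adjusted p 0.069). In inhibitory neuron-like nuclei Klf6 stood at 18.0 and 14.7 CPM in the lesion and 8.33 and 11.5 in the parenchyma, a difference of 0.82 (SE 0.30, unadjusted p 0.030, adjusted 0.17). Stmn4 there stood at 25.3 and 28.7 CPM in the lesion and 19.1 and 19.8 in the parenchyma (difference 0.55, adjusted p 0.20). The adjusted p was 0.51 for Jun, 0.45 for Sox11 and 0.80 for Ddit3. Fibroblast markers moved with the lesion in these sums: 6 of them added up to 286 and 126 CPM in lesional and 42.5 and 38.1 in parenchymal inhibitory neuron-like nuclei, and to 148 and 88.1 against 30.9 and 30.3 in excitatory neuron-like nuclei. Their part in the differences above was not tested. In simulated sums of the same size, 66% of genes with a true log2 change of 1 were recovered in the excitatory and 64% in the inhibitory comparison. The changed genes there were drawn from genes with many UMIs, at a fixed dispersion of 0.02 and with the same region effect in each library. These shares therefore do not apply to injury genes with few UMIs, such as Atf3 (39 in excitatory) and Jun (67 in inhibitory neuron-like nuclei).

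The levels of Gap43 spread more widely over neuron subtypes than over regions. Layer 5 extratelencephalic-like nuclei, whose axons leave the forebrain, stood at 254 CPM (118 UMIs in 27 nuclei) in the control lesion, 198 in the Cxcl12-cKO lesion, 232 in the control parenchyma and 201 in the Cxcl12-cKO parenchyma. Layer 6b-like nuclei followed at 204 CPM in the control lesion and 186 and 137 in the parenchyma, with only 1 nucleus in the Cxcl12-cKO lesion. Low levels were found in the Rorb-led subcluster 1, at 43.4 and 43.5 CPM in the lesion and 58.2 and 63.0 in the parenchyma. Corticothalamic-like nuclei stood at 85.5 and 62.9 against 129 and 128 CPM, upper-layer-like nuclei at 78.5 and 86.1 against 88.4 and 84.8, and near-projecting-like nuclei at 88.3 and 43.2 against 106 and 82.1. Of inhibitory subtypes, Pvalb and Sst interneuron-like nuclei stood at 57.0 and 66.1 CPM in the lesion and 79.2 and 106 in the parenchyma, and Adarb2 interneuron-like nuclei at 102 and 41.1 against 79.1 and 95.9. Striatal projection-like nuclei, present although the study's methods say that subcortical tissue was removed, stood at 87.0 and 139 CPM in the lesion and 126 and 110 in the parenchyma. Neighbouring subtypes in this order were not set apart by any test.

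Within subtypes the lower Gap43 of the lesion was not uniform. Over 25 pairs of a subtype and a library with at least 5 nuclei in each region, 16 were lower in the lesion, and the counting interval lay under 0 in 8 and above 0 in none. Corticothalamic-like nuclei differed by -0.59 in the control and -1.005 in the Cxcl12-cKO library, and Pvalb and Sst interneuron-like nuclei by -0.46 and -0.66. In layer 5 extratelencephalic-like nuclei, the differences were 0.14 and -0.01, and in upper-layer-like nuclei -0.17 and 0.03. With each subtype weighted alike, the excitatory difference was -0.11 in the control library over 9 subtypes and -0.54 in the Cxcl12-cKO library over 7. For Stmn4, 7 of the 25 pairs were lower in the lesion, with the interval under 0 in 1 and above 0 in 5. Corticothalamic-like nuclei carried it at 63.2 and 58.2 CPM in the lesion against 36.5 and 40.5 in the parenchyma, and the equally weighted excitatory difference was -0.05 in the control and 0.62 in the Cxcl12-cKO library.

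**Figure D4:**
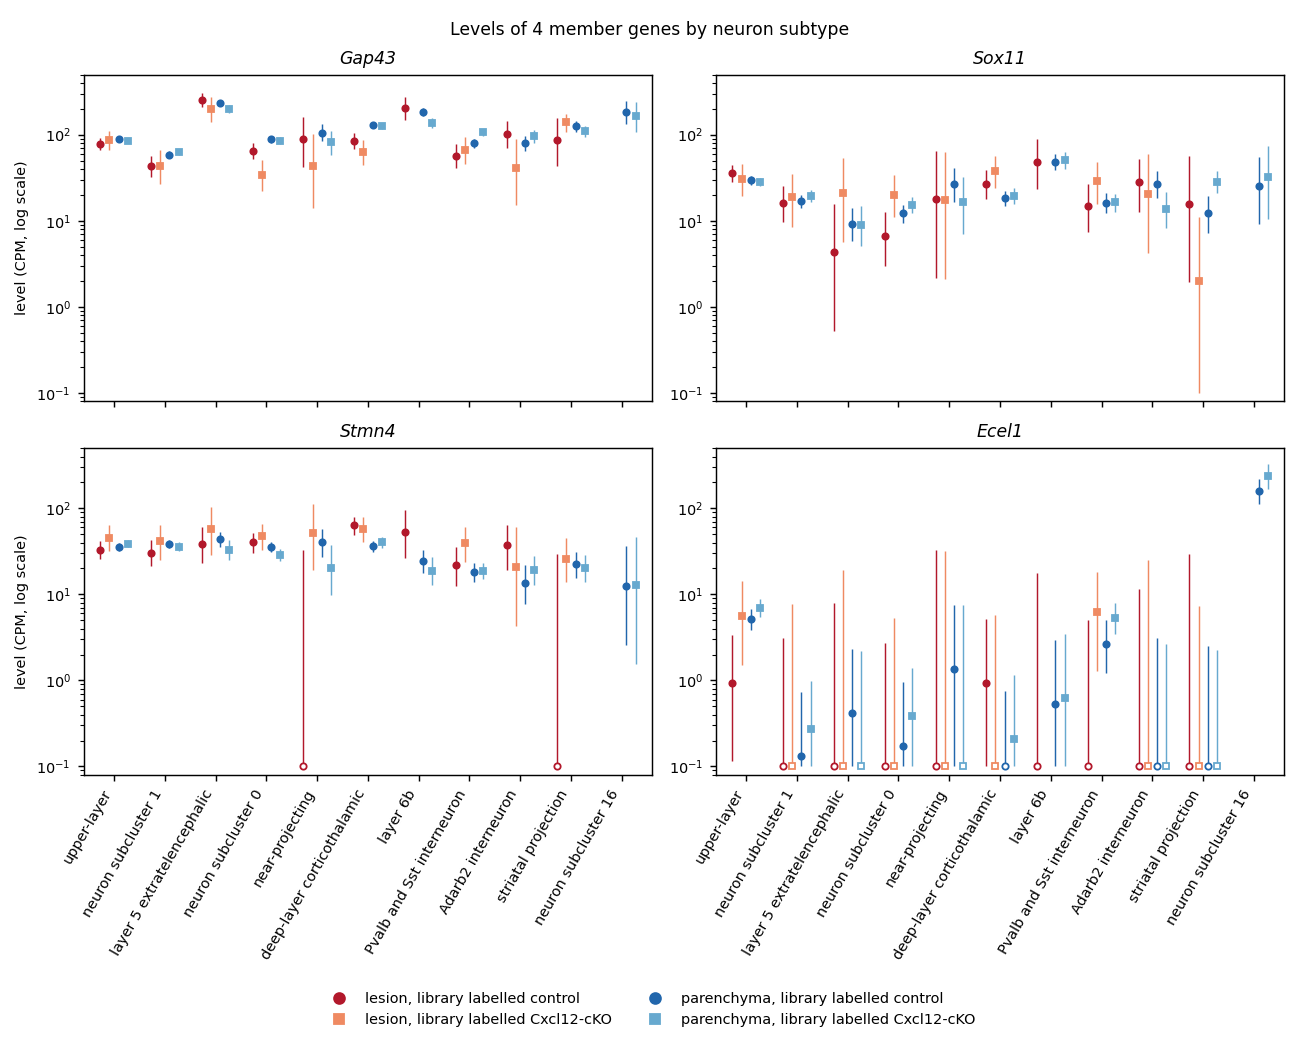
Level of Gap43, Sox11, Stmn4 and Ecel1 (CPM, 95% Poisson intervals) in neuron subtypes with at least 5 nuclei, with 1 point for each region and library. Layer 5 extratelencephalic-like nuclei stand between 198 and 254 CPM of Gap43 in all 4 combinations, and Ecel1 is highest in subcluster 16, which had no lesional nucleus.

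Sox11, a SoxC factor of immature and injured neurons, differed little between regions in the sums over a class. Excitatory neuron-like nuclei stood at 22.1 CPM in the control lesion, 25.5 in the Cxcl12-cKO lesion, 22.0 in the control parenchyma and 22.5 in the Cxcl12-cKO parenchyma, inhibitory neuron-like nuclei at 21.0, 24.3, 18.6 and 19.4, and astrocyte-like nuclei at 21.7, 18.7, 25.6 and 20.9. Its subtype order was not that of Gap43: layer 6b-like nuclei were high for both, at 48.6 CPM of Sox11 in the control lesion and 48.3 and 50.4 in the parenchyma, but layer 5 extratelencephalic-like nuclei, highest for Gap43, stood at 4.31 and 20.8 CPM in the lesion and 9.27 and 9.02 in the parenchyma. Upper-layer-like nuclei stood at 35.5 and 30.5 CPM in the lesion and 29.4 and 28.3 in the parenchyma. With each of 4 inhibitory subtypes weighted alike, Sox11 was higher in the lesion by 0.86 in the control (35.0 against 19.2 CPM) and by 1.82 in the Cxcl12-cKO library (51.7 against 14.5 CPM), an average that includes a small unnamed subcluster of 72 nuclei with 7 and 14 lesional Sox11 UMIs. The equally weighted excitatory differences were 0.09 and -0.0025, and over the 25 pairs of a subtype and a library the counting interval lay above 0 in 2 and under 0 in 1.

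Ecel1 was concentrated in few neurons, with 288 UMIs in 147 nuclei. Its highest level was in subcluster 16, which held 16 parenchymal nuclei led by Slc5a7 and Chat, genes of acetylcholine neurons, at 160 CPM (113 to 219, 38 UMIs) in the control and 236 CPM (166 to 325, 37 UMIs) in the Cxcl12-cKO library. Upper-layer-like nuclei stood at 0.95 CPM (2 UMIs) and 5.55 CPM (4 UMIs) in the lesion and 5.18 (51 UMIs) and 7.01 (76 UMIs) in the parenchyma. Inhibitory neuron-like nuclei as a class held 0 and 3 Ecel1 UMIs in the lesion, against 48 and 72 in the parenchyma. The fitted difference was -2.84 (SE 0.77, unadjusted p 0.0076, adjusted 0.0905), and subcluster 16, which was not sampled in the lesion, gave 38 of the 48 and 37 of the 72 parenchymal UMIs. Without subcluster 16, a choice made after seeing the data, Ecel1 no longer passed the filter on low counts in inhibitory neuron-like nuclei.

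Outside neurons, Gap43 stood far higher in lesional than in parenchymal astrocyte-like nuclei, a difference given with counting intervals and no test because the parenchyma held few astrocytes. It stood at 111 CPM (97.5 to 125, 255 UMIs) in 534 lesional nuclei of the control library and 149 CPM (134 to 164, 389 UMIs) in 539 of the Cxcl12-cKO library. In 39 and 47 parenchymal astrocyte-like nuclei it stood at 10.2 CPM (1.24 to 36.9) and 8.35 CPM (1.01 to 30.2), from 2 UMIs each. The log2 difference was 3.12 (counting interval 1.57 to 6.49) in the control and 3.83 (2.29 to 7.20) in the Cxcl12-cKO library. The lesional astrocyte level was as high as that of excitatory neuron-like nuclei of the parenchyma. Of lesional astrocyte-like nuclei, 23.0% and 34.0% held a Gap43 UMI at medians of 3665 and 4071 UMIs, and 8.83% and 11.4% after thinning. In lesional myeloid-like nuclei, at lower medians of 2170 and 2379 UMIs, the unthinned shares were 1.29% and 2.62%, so these shares are at unequal depth. The astrocyte level in CPM was above that of lesional fibroblast-like nuclei, 12.7 and 20.2 CPM. The part of background RNA in these values was not tested.

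**Figure D5:**
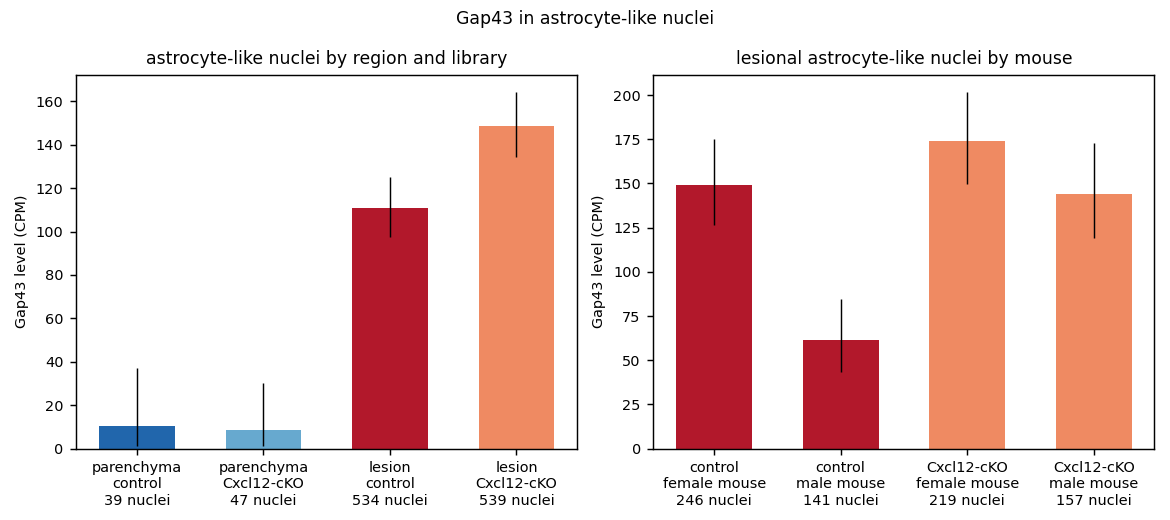
Level of Gap43 (CPM, 95% Poisson intervals) in astrocyte-like nuclei by region and library (left) and in lesional astrocyte-like nuclei by mouse (right). The lesional levels are 111 and 149 CPM against 10.2 and 8.35 CPM in the parenchyma, and the control male at 61.6 CPM is the lowest of the 4 mice.

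The mice differed within the lesional astrocyte-like nuclei. In the control library the female stood at 149 CPM (246 nuclei) and the male at 61.6 CPM (43.3 to 84.8, 141 nuclei), and in the Cxcl12-cKO library the female at 174 CPM (150 to 202) and the male at 144 CPM (119 to 173). All 4 lay above both parenchymal sums, and the control male lay under the other three. Markers of other cells moved with the region. The 6 astrocyte markers summed to 5209 and 6289 CPM in the lesion and 12354 and 12263 in the parenchyma, whereas Gfap, the filament protein of reactive astrocytes, stood at 838 and 1041 against 332 and 171 CPM. The 5 oligodendrocyte precursor markers summed to 2322 and 1731 CPM in the lesion and 169 and 142 in the parenchyma, mostly from Lhfpl3 (1158 and 831 CPM in the lesion) and Tnr (925 and 733), while the defining Pdgfra stood at 39.5 and 28.3 CPM in the lesion and at 0 in the parenchyma. In the 72 and 85 lesional nuclei without a UMI of any precursor marker, Gap43 stood at 216 CPM (164 to 280) and 118 CPM (84.7 to 159). In the 152 and 171 without a UMI of any neuron marker, it stood at 147 CPM (117 to 183) and 177 CPM (147 to 210). The part of precursor or neuronal RNA in the lesional level was not tested.

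The transcription factors were also read in astrocyte-like nuclei of both regions. Klf6 in astrocyte-like nuclei has been given above, Jun stood at 21.3 and 27.5 CPM in the lesion and 10.2 and 25.1 in the parenchyma, and Ddit3 at 16.5 and 14.5 against 10.2 and 4.18, the parenchymal values resting on few UMIs. Atf3 had 16 and 12 UMIs in lesional and 0 in parenchymal astrocyte-like nuclei. In oligodendrocyte-like nuclei Gap43 did not follow the astrocyte pattern: it stood at 8.03 CPM (5 UMIs) in the control lesion, 18.3 CPM (13 UMIs) in the Cxcl12-cKO lesion, 9.24 CPM (1 UMI) in the control parenchyma and 121 CPM (23 UMIs in 32 nuclei) in the Cxcl12-cKO parenchyma. The log2 difference there was -0.65 (-3.36 to 5.36) in the control and -2.71 (-3.84 to -1.69) in the Cxcl12-cKO library.

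Around the 10 genes, 6 wider lists with 100 genes of the same programme were counted in lesional excitatory neuron-like nuclei, and each held genes called in both directions, where 15% of all genes were called higher and 17.5% lower. Of 13 AP-1 and CREB/ATF factors tested, 2 rose and 3 fell, with a median log2 difference of -0.49: Creb5 rose by 1.41 and Fosl2 by 0.49, and Junb fell by 1.47, Jund by 0.64 and Atf4, the stress-response factor, by 0.49. Junb, an activity-induced partner of Fos, stood at 7.90 and 4.79 CPM in the lesion against 21.7 and 17.9 in the parenchyma. Of 12 Krüppel-like and SoxC factors, Klf9 (0.52), Klf12 (0.34) and Klf7 (0.29) rose and Klf10 (-0.56) fell, with a median of 0.25. Of 19 other regeneration-associated factors and signals, 3 rose and 2 fell, with a median of 0.17. Stat3, the transducer of gp130 cytokines, rose from 27.1 and 28.9 CPM to 45.3 and 39.3 (log2 difference 0.72), and Plaur, the urokinase receptor, rose by 2.02. Flrt3, an adhesion protein of injured sensory neurons, went down from 49.4 and 47.2 to 15.1 and 12.8 CPM (-1.67) and Adcyap1, which encodes the neuropeptide PACAP, by -1.23.

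Of 23 genes of the growth cone and cytoskeleton, 1 rose and 5 fell, with a median of -0.19. Ncam1 rose by 0.26, and the tubulins Tubb2a and Tuba1a fell by 1.01 and 0.95 and Stmn1 by 0.56. Of 9 genes of the DLK and JNK pathway, which acts on Jun, Mapk10 (0.34) and Map2k4 (0.20) rose and the scaffold Mapk8ip1 (-0.36) fell, with a median of 0.12. Of 13 genes of the integrated stress and unfolded protein response, the sensors Eif2ak3 (0.70) and Atf6 (0.68) rose and 4 fell, among them Ddit4 (-1.42), Xbp1 (-0.83) and Herpud1 (-0.57), with a median of 0.08. All of these calls are at an edgeR adjusted p under 0.05 in fits over all genes. In excitatory neuron-like nuclei without a fibroblast or myeloid marker UMI, 2764 of 13830 genes tested were called, in place of 5785 of 17814. The part of fibroblast or myeloid RNA in these calls, Plaur among them, was not tested. In inhibitory neuron-like nuclei, Stat3 rose by 0.85 (adjusted p 0.043), and Flrt3 and Vip fell by 1.73 and 1.65 (0.007 and 0.014), of 13 regeneration-associated genes tested, where 1.38% of all genes were called higher and 3.64% lower. None was called of 9 AP-1 and CREB/ATF factors (Atf2, the one with most UMIs, 0.11, adjusted p 0.76), 9 Krüppel-like and SoxC factors (Klf12, 0.32, 0.41), 21 growth cone genes (Ncam1, 0.30, 0.38), 9 pathway genes (Mapk10, 0.21, 0.56) or 11 stress genes (Atf6, 0.42, 0.28). The mix of subtypes also differed between the regions. Adarb2 interneuron-like nuclei, for which Vip is a marker, numbered 27 and 15 in the lesion and 101 and 104 in the parenchyma. Inhibitory neuron-like nuclei in all numbered 140 and 140 against 502 and 544. Striatal projection-like nuclei numbered 8 and 46 against 95 and 106. Beside those totals they were scarcer in the lesion than in the parenchyma of the control library, and more frequent in the lesion of the Cxcl12-cKO library. Unnamed neuron subcluster 13 had 5 and 2 lesional against 201 and 167 parenchymal nuclei. The part of subtype mix in the calls of the wider lists was not tested.

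Between the libraries, which give no replicate and so no test, no injury gene in the 8 named lesional classes differed by a log2 ratio of at least 1 with 20 or more UMIs, a size that 2.57% of 14747 genes reached in lesional myeloid-like, 3.58% in excitatory neuron-like, 3.72% in astrocyte-like, 2.48% in fibroblast-like, 5.54% in oligodendrocyte-like, 6.88% in endothelial-like, 8.02% in inhibitory neuron-like and 9.28% in T cell-like nuclei. The unnamed cluster led by Bcas1 and Enpp6, with 95 control and 138 Cxcl12-cKO lesional nuclei, was not among these classes. Gap43 stood there at 72.8 CPM (33 UMIs) in the control and 158 CPM (110 UMIs) in the Cxcl12-cKO lesion. That is past this size, but the share of all genes past it in that cluster is not given here. Smaller differences were seen in the named classes, with intervals for counting error only. In lesional myeloid-like nuclei, the Cxcl12-cKO library was above the control library by 0.51 (0.32 to 0.71) for Atf3, 0.51 (0.24 to 0.80) for Jun and 0.64 (0.31 to 0.98) for Ddit3, and by 0.15 (-0.02 to 0.33) for Klf6. By mouse, Atf3 stood at 64.0 CPM in the control female and 71.4 in the control male against 110 and 94.8 in the Cxcl12-cKO female and male. Ddit3 stood at 20.1 and 22.1 against 37.9 and 40.8. By point value the mice of the 2 libraries did not overlap for either gene. The Atf3 counting intervals of the males did, at 58.7 to 86.0 CPM in the control and 80.9 to 110 CPM in the Cxcl12-cKO library. Jun stood at 42.3 and 29.2 CPM in the control female and male and at 46.0 and 51.1 in the Cxcl12-cKO mice. The Jun point values did not overlap either, the nearest being 42.3 and 46.0. Markers also moved in these sums: 8 myeloid markers summed to 2719 and 2109 CPM in the control and Cxcl12-cKO libraries, and the 6 fibroblast markers to 1057 and 644. Their part in the library differences was not tested.

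Gap43 differed between the libraries in opposite ways by class. The Cxcl12-cKO library was lower in lesional excitatory neuron-like nuclei (-0.43, -0.67 to -0.20) and higher in lesional astrocyte-like (0.42, 0.19 to 0.66), fibroblast-like (0.66, 0.39 to 0.94) and myeloid-like nuclei (0.79, 0.15 to 1.51). In lesional astrocyte-like nuclei the mice of the libraries overlapped, since the control female at 149 CPM lay above the Cxcl12-cKO male at 144 CPM and the control male at 61.6 CPM was lowest, and the direction turned in nuclei without a precursor marker UMI (216 CPM in the control and 118 CPM in the Cxcl12-cKO library). In parenchymal neurons, it was slightly lower in excitatory (-0.10, -0.16 to -0.04) and higher in inhibitory neuron-like nuclei (0.17, 0.02 to 0.31). Ddit3 was also higher in fibroblast-like nuclei of the Cxcl12-cKO library (0.33, 0.09 to 0.57) and Klf6 in endothelial-like nuclei (0.85, 0.07 to 1.64), while Stmn4 in lesional excitatory neuron-like nuclei had an interval that crossed 0 (0.26, -0.04 to 0.54). In the parenchyma, 1 injury gene was past the size rule, Atf3 in excitatory neuron-like nuclei, with 7 UMIs in the control and 24 in the Cxcl12-cKO library (log2 ratio 1.74, 0.55 to 3.27). Of the nuclei assigned to a mouse, those of the Cxcl12-cKO female held 16 of these Atf3 UMIs (0.88 CPM) and those of the male 3 (0.206 CPM), beside 4 (0.209 CPM) in the control female and 2 (0.125 CPM) in the control male, so the Cxcl12-cKO female alone stood apart. Of all genes, 2.14% were past it in that class and 2.17% in parenchymal inhibitory neuron-like nuclei.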

How the data were processed

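Single-nucleus RNA-seq matrices of UMI counts, deposited by the authors for each region and library (Cell Ranger 9.0.0 on GRCm39, per the submitters' processing notes), were used as raw counts. The tag libraries were used only through the region split the authors had made. Barcodes in the lowest or highest 2.5% for UMIs or genes, or the highest 2.5% for mitochondrial share, were removed. Nuclei were clustered (scanpy 1.11.5; 3000 variable genes, 30 components, Leiden resolution 0.25) without the injury genes and wider lists, 110 genes in all, and neurons were clustered again. Clusters were named from fixed markers. Scrublet called 283 doublets, which were kept; an alternative removed the highest 10% of scores. Region sums were tested with edgeR 4.0.16 (TMM, filterByExpr, ~ library + region, Benjamini-Hochberg over all genes, threshold 0.05) and DESeq2 1.42.0 in R 4.3.3, after a check on simulated data. Library ratios added 0.5 UMI to each sum, with exact conditional binomial intervals. Nuclei were assigned to a mouse from Xist and Y-linked UMIs. Injury genes were named in every comparison, and of each wider list up to 3 called genes in each direction with the largest change, or else the gene with most UMIs; 1 called gene is not reported here. The genes and lists were chosen with earlier results of these data known. For the region comparison, 15 other settings were computed, with 2 more chosen after seeing the data.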

Additional observations from a re-analysis of the deposited data

Results flagged for a closer look

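By point estimate, the lesion to parenchyma difference of 4 injury genes had opposite signs in 2 cell classes in both libraries. None of these differences between classes was tested. Values are log2 differences, averaged over the 2 libraries, and the parenchymal astrocyte-like sums rest on few nuclei. For Gap43 the difference was 3.47 in astrocyte-like nuclei against -0.52 in excitatory and -0.29 in inhibitory neuron-like nuclei, a gap of 3.99 and of 3.77. For Klf6 it was -0.16 in excitatory neuron-like nuclei, against 0.75 in inhibitory neuron-like (a gap of 0.92) and 1.70 in astrocyte-like nuclei (a gap of 1.86). For Ddit3 it was 0.81 in astrocyte-like against -0.47 in excitatory neuron-like nuclei, a gap of 1.28. For Sox11 it was -0.32 in astrocyte-like nuclei against 0.10 in excitatory and 0.27 in inhibitory neuron-like nuclei, a gap of -0.42 and of -0.59. Every Sox11 and Ddit3 counting interval in these classes reached to either sign, as did the excitatory Klf6 intervals. In inhibitory neuron-like and astrocyte-like nuclei, the Klf6 interval kept 1 sign in the control library only. The Gap43 intervals kept 1 sign except in inhibitory neuron-like nuclei of the Cxcl12-cKO library. Parenchymal astrocyte-like nuclei held 1 to 5 UMIs of each gene in each library.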

How the results depend on the processing

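With 2 libraries of different genotype, 1 residual degree of freedom and few lesional neurons, the region test has little depth for Atf3, Ecel1 and Ddit3. In excitatory neuron-like nuclei 5785 genes were called, and separate fits called 2177 by DESeq2, 2764 after removing nuclei with fibroblast or myeloid marker UMIs, 3749 in females, 2345 in males and 742 after thinning to 1000 UMIs. The count of injury genes called there was 2, against 0 by DESeq2, 1 in females (Stmn4) and 1 after thinning (Gap43). In inhibitory neuron-like nuclei 696 genes were called, against 1139 without the TMM factor, 295 by DESeq2, 1724 without the filter on low counts, 111 without the marker nuclei, 256 in females, 58 after thinning and 1180 without the percentile filter. Without library as a replicate block, 1148 genes were called in inhibitory and 5877 in excitatory neuron-like nuclei, and no injury gene gained or lost its call. In place of 0 injury genes called in inhibitory neuron-like nuclei, 1 was without the TMM factor, without the filter, without the percentile filter or without subcluster 9 (Ecel1, adjusted p 0.027, 0.00039, 0.028 and 0.027), and 1 in males (Gap43, -0.92, adjusted p 0.017). In excitatory neuron-like nuclei Ecel1 gained a call without the TMM factor (-1.42, adjusted p 0.044) and without the highest Scrublet scores (-2.52, 0.0025), Ddit3 in males (-2.85, 0.011) and Atf3 without the percentile filter (1.58, 0.047). Without subcluster 9, 7 injury genes could be tested there in place of 8. That subcluster held 9 lesional Atf3 UMIs, against 6 in all other lesional neurons. Directions turned in excitatory neuron-like nuclei for Jun (-0.15) and Sox11 (-0.0016) without the marker nuclei, Ddit3 (0.35) in females, Jun (-0.69) and Stmn4 (-0.11) in males, and Sox11 (-0.036) and Klf6 (0.69) after thinning, and in inhibitory neuron-like nuclei for Stmn4 (-0.11) and Ddit3 (0.48) in males and Ddit3 with 1 library left out (-0.47 to 0.034). The causes were not tested. Of excitatory calls 46.1% were higher in the lesion, against 30.3% without the TMM factor, where the median of all genes moved from -0.05 to -0.15, and 34.1% in males; of inhibitory calls 27.6% were, against 16.3% without the highest Scrublet scores and 14.8% in females. Between libraries, the 0 injury genes past the size rule in named lesional classes became 1 at Leiden resolution 0.5, 1 without the highest Scrublet scores and 1 in females. They became 2 in males, 3 after thinning and 3 by mean CPM per nucleus. The 1 in parenchymal neurons became 0 without the marker nuclei, 2 in females, 0 in males and 0 after thinning. The share of all genes past the rule under each of these settings is not given here, so these counts are not set against a background. Removing subcluster 9 or 16 was chosen after seeing the data.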

Other observations

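Injury genes were also counted in nuclei outside the comparisons. An unnamed cluster of 265 nuclei led by Bcas1 and Enpp6, genes of newly formed oligodendrocytes, stood at 72.8 CPM of Gap43 in the control lesion (33 UMIs) and 158 CPM in the Cxcl12-cKO lesion (110 UMIs). An unnamed neuron subcluster of 72 nuclei led by Pbx3, Meis1 and Tshz1 stood at 81.4 CPM of Sox11 in the control lesion (7 UMIs) and 155 CPM in the Cxcl12-cKO lesion (14 UMIs), against 21.4 CPM (3 UMIs) and 0 UMIs in the parenchyma, the highest Sox11 of any neuron subcluster.

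Within single nuclei thinned to 5000 UMIs, 44.7% (39.9 to 49.6) of parenchymal excitatory neuron-like nuclei with a Sox11 UMI also held a Gap43 UMI, against 36.3% (34.7 to 37.9) of those without, and in the lesion the shares were 37.0% (26.6 to 48.5) and 25.8% (22.4 to 29.4). For Gap43 with and without Stmn4 in the lesion they were 33.8% (26.2 to 42.0) and 25.3% (21.7 to 29.1). In lesional myeloid-like nuclei thinned to 1000 UMIs, Atf3 was found in 11.1% of nuclei with and 5.52% of nuclei without a Jun UMI in the control library, and in 11.8% and 7.57% in the Cxcl12-cKO library, with overlapping intervals. Nuclei of 1 library are not replicates, and these shares mix subtypes.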
